A study of Mus musculus with 6 samples.

Results

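The transcripts followed here are those of 10 genes of the LIM system of neurons. They are the LIM homeodomain factors Lhx1, Lhx2, Lhx5 and Lhx9, the LIM-domain-binding cofactors Ldb1 and Ldb2, and the LIM-only proteins Lmo1, Lmo2, Lmo3 and Lmo4. They were taken by name from the platform's probe table, which gives them 16 of the 45037 probe sets used, each with a single gene symbol. All 10 genes were measured, and the brightest probe set of a gene, by its mean over all 6 arrays, stands for it, here and for the 18193 genes in all. The cells came from mouse embryos at E10.5. They were sorted from dissected hindbrains for tauGFP, in which green fluorescent protein is joined to the microtubule protein tau, and which both genotypes make from the Hoxb1 locus through an internal ribosome entry site. In the swap group, labelled Hoxb1>A1-IRES-tauGFP (n = 3 arrays), that locus makes another Hox protein in place of Hox-B1. In the control group, Hoxb1-IRES-tauGFP (n = 3 arrays), it makes Hox-B1 itself. Both groups therefore carry the reporter, each array is a pool of sorted cells from entire litters, and the sort takes every cell in which the locus is active, whatever its type. Zygosity is not given in the sources used here.

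A LIM homeodomain protein binds DNA through its homeodomain and binds partners through a pair of zinc-finger LIM domains. Ldb proteins dimerise and bind LIM domains, so they join LIM homeodomain proteins, or LIM-only proteins and their own DNA-binding partners, into larger complexes. LIM-only proteins consist of little more than LIM domains and have no homeodomain, so they can compete for Ldb or act as bridges. In the spinal cord and hindbrain, Lhx2 and Lhx9 are known from the dI1 interneurons that descend from Atoh1-positive progenitors, and Lhx1 and Lhx5 from several dorsal and ventral interneuron classes.

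The median intensity of an array was 118 to 139, and precision is limited by having 3 arrays per genotype. The labels give the tissue as rhombomere 4, and Isl1, a LIM homeodomain factor of motor neurons, stood at log2 intensities of 13.74 to 14.03 in the swap arrays and 13.63 to 13.77 in the control arrays. Of 4 measured genes of the facial motor neuron list 2 were higher and 2 lower, among them Tbx20 (0.19, SE 0.24) and Phox2a (-0.50, SE 0.31). The probe set of Hoxb1 read 11.78 to 12.54 in the swap arrays and 12.55 to 12.68 in the control arrays. Which part of the transcript it covers was not known, so it does not check the labels. Swap array 1 and control array 1 lay at one end of the first principal component, with swap array 2 between them and the other 3, and each gene's difference is also given without these 2 replicate 1 arrays.

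None of the 10 genes passed the test between the genotypes. In the swap arrays Lhx2 and Lhx9, the pair of dI1 factors, had the 2 largest log2 differences of the 10, at 1.01 and 0.84. limma was fitted to all probe sets and called 0 of the 16 member probe sets at an adjusted p under 0.05 (the smallest was 0.869 for Lhx9), as it called 0% of all probe sets. At an unadjusted p under 0.05 there were 2 of 16, where 4.57% of all probe sets lay under that p. Of the 10 genes 7 had a higher mean and 3 a lower mean in the swap arrays, and the median of their log2 differences was 0.04, against 0.01 over all genes. In Lhx2 and Ldb2 all swap arrays lay on one side of all control arrays, which was the case for 8.85% of all genes (4.30% with the swap arrays higher). All 10 genes had a mean at or above the median level of the probe sets (intensity 114). For 4 of the 10, Ldb2, Lmo1, Lmo3 and Lmo4, the 95% interval stayed within 2-fold, against 68.1% of the genes at or above that level.

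**Figure D1:**
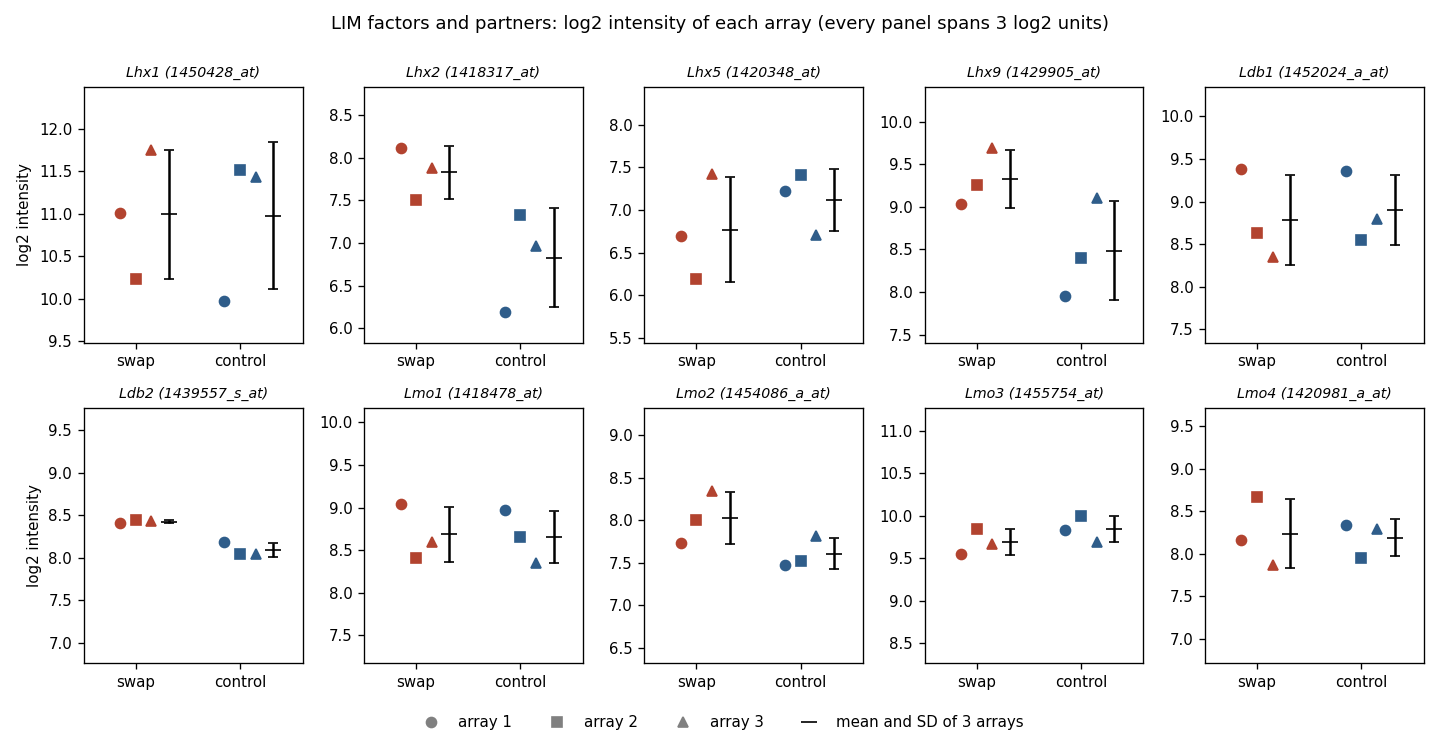
Log2 intensity (vertical axis) of the highest-mean probe set of each of the 10 genes in the 3 swap arrays and the 3 control arrays, with the mean and SD beside each group. Lhx2 and Ldb2 show no overlap between the genotypes, while the arrays of Lhx1 lie between 9.98 and 11.75 with both genotypes mixed.

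Lhx2 was read by 1 probe set (1418317_at). Its log2 intensities were 8.12, 7.50 and 7.88 in swap arrays 1, 2 and 3, against 6.19, 7.33 and 6.96 in control arrays 1, 2 and 3. Every swap array lay above every control array, with swap array 2 and control array 2 nearest to each other. The difference was 1.01 on the log2 scale (SE 0.37, 95% interval 0.08 to 1.93), or 2.01-fold, with limma's adjusted p = 1.00 and a two-sided exact permutation p of 0.1, the smallest that 3 against 3 arrays can give. Control array 1 was the lowest of the 6, and without both replicate 1 arrays the difference was 0.54. Its intensity of 72.8 in control array 1 lay below the median level of 114. With an offset of 64 added before the log2, the difference was 0.70. In RNA from pooled cells, more cells of a type and more transcript per cell cannot be told apart.

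Lhx9, which is closely related to Lhx2 and shares its place in dI1 interneurons, was read by 4 probe sets. The one with the highest mean (1429905_at) stood at 9.03, 9.26 and 9.69 in the swap arrays and at 7.95, 8.40 and 9.10 in the control arrays. Its groups overlapped, because control array 3 lay above swap array 1. The difference was 0.84 (SE 0.38, 95% interval -0.09 to 1.78), with limma's adjusted p = 1.00 and an exact permutation p of 0.2. Without both replicate 1 arrays it was 0.72.

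The other Lhx9 probe sets differed among themselves. Probe set 1419324_at had the tightest replicates of the 4, at 8.38, 8.14 and 8.31 in the swap arrays and 7.59, 7.18 and 7.39 in the control arrays. All swap arrays were above all control arrays there, and the difference was 0.89 (SE 0.23, 95% interval 0.33 to 1.45, unadjusted p = 0.0084, limma's adjusted p = 0.869). With 1 array left out in turn this difference stayed between 0.78 and 0.99, a check added after seeing the data, and without both replicate 1 arrays it was 0.94. Probe set 1441313_x_at, whose suffix marks probes that may also bind other transcripts, read 8.71, 8.25 and 8.42 in the swap arrays and 6.91, 6.99 and 8.41 in the control arrays, a difference of 1.03 (SE 0.46). Its control arrays split, with control array 3 inside the swap range. Without control array 3 the difference was 1.51 (limma's adjusted p = 0.470), and without both replicate 1 arrays it was 0.64. Probe set 1431598_a_at lay below the median level, with 6.73, 7.11 and 5.18 in the swap arrays and 7.08, 6.89 and 5.06 in the control arrays, and its difference was -0.00 (95% interval -1.86 to 1.86). Thus 3 of the 4 Lhx9 probe sets had differences of 0.84 to 1.03 over all 6 arrays, 0.64 to 0.94 without both replicate 1 arrays, and the dimmest did not resolve a change of that size in either direction.

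**Figure D2:**
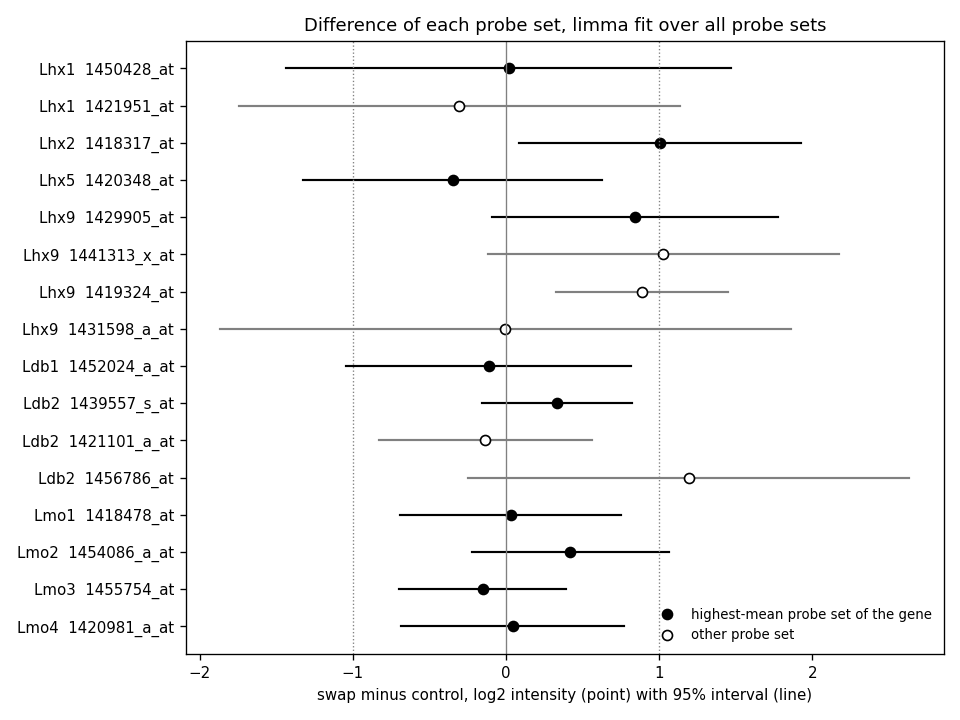
Difference between swap and control (log2 intensity, horizontal axis) of all 16 probe sets with the 95% interval from limma, filled points marking the probe set that represents its gene. Only the intervals of Lhx2 1418317_at and Lhx9 1419324_at leave out 0, and both lie on the side where swap is higher.

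Because Lhx2 and Lhx9 had the largest differences, their start regions are shown, each from 250 bases before to 50 bases after a RefSeq transcript start (GRCm38.p6), written 5′ to 3′ on the gene's strand. Capitals mark E-boxes, written CANNTG, the kind of site that proneural factors such as Atoh1 bind. RefSeq gives Lhx2 a pair of starts, at chr2:38339031-38339330 and chr2:38351058-38351357 on the plus strand, and Lhx9 one window at chr1:138842395-138842694 on the minus strand.
Lhx2 first start: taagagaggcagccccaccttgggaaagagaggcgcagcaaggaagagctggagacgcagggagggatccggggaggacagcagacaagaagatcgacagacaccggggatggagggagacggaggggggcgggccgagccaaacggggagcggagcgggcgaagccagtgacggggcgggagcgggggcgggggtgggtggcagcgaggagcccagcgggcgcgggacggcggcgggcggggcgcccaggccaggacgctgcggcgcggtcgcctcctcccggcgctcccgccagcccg
Lhx2 second start: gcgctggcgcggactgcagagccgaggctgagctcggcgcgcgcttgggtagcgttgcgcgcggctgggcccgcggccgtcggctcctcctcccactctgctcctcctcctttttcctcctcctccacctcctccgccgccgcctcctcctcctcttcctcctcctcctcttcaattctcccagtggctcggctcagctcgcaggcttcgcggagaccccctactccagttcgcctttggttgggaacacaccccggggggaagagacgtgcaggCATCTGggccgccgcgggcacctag
Lhx9: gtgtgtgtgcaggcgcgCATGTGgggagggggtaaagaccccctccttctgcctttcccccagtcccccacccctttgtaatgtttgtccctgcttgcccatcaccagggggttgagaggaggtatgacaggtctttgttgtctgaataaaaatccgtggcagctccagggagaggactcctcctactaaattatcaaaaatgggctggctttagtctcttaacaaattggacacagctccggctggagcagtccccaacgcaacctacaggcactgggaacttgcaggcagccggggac
The first Lhx2 window holds 0 E-boxes, and the second Lhx2 window and the Lhx9 window hold 1 each. RefSeq windows were found for 7 of the 10 genes, 13 windows in all, and 8 of the 13 hold an E-box on either strand, against 72.3% of 32851 windows of the same length. In Lmo1, and likewise in Lmo4, the same E-box lies in 2 overlapping windows and is counted in both. The variant CAGCTG, which is also counted under CANNTG, was in 0 of 13 (16.3% of all windows). The homeodomain core TAATTA was in 2 of 13 windows, both of them overlapping windows of Lmo1, against 5.29% of all. A joint Pbx and Hox site written TGATNNAT was in 0 of 13 (8.85% of all), and the GATA core GATAA was in 2 (25.4% of all). These are letter matches in short windows and say nothing of binding.

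Genes that share the dI1 class with Lhx2 and Lhx9 had overlapping arrays. Barhl2, a homeodomain factor of the class, read 9.13, 8.14 and 7.53 in the swap arrays and 7.79, 8.14 and 7.14 in the control arrays, a difference of 0.57 (SE 0.50). Atoh1, the proneural factor of its progenitors, was dimmer than the median probe set and had a difference of 1.08 (SE 1.09), and Barhl1 had one of 0.27 (SE 0.38). These 3 were chosen after their values were seen. The list of classes dI1 to dI3, which also holds Pou4f1, Foxd3, Tlx3, Neurog1 and Neurog2, had 4 of 8 genes higher and 4 lower, 0 past the test, and a median of -0.02. Its smallest p belonged to Tlx3 (-0.97, SE 0.37, below the median level) and the proneural gene Neurog1 (-0.52, SE 0.26). Unlike Barhl2, Atoh1 and Barhl1, the brightest gene of the list, Pou4f1, had a lower mean in the swap arrays (-0.21, SE 0.35).

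Lhx2 and Lhx9 are also expressed in the forebrain and midbrain, and genes of those regions were read beside them. Otx2, a homeodomain factor of the anterior brain, had 9.82, 9.54 and 9.22 in the swap arrays and 8.47, 8.58 and 8.48 in the control arrays, 1.02 higher on average (SE 0.24, adjusted p = 0.818 in limma). Rax, a factor of the eye field and hypothalamus that lay below the median level, had a difference of 1.94 (SE 0.65), and Dlx2, the gene of the list with the highest mean, had one of -0.06 (SE 0.36). In the forebrain and midbrain list, Barhl2, En1 and Lmx1a are also counted in other lists here. Of its 12 measured genes 7 were higher and 5 lower, with a median of 0.25. Their summed intensity ranged from 2866 to 4459 in the swap arrays and from 2994 to 3973 in the control arrays. Dlx2 is the largest single part of that sum in every array, so the sum mostly follows Dlx2 and is no separate reading of Otx2 or Rax. The part of such cells in the Lhx2 and Lhx9 values was not tested.

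Lhx1, a factor of several interneuron classes, had almost no difference between the genotypes and a wide spread within each. Its brighter probe set (1450428_at) read 11.00, 10.23 and 11.75 in the swap arrays and 9.98, 11.52 and 11.44 in the control arrays. The 2 lowest arrays, control array 1 and swap array 2, were of different genotypes. The difference was 0.02 (SE 0.59, 95% interval -1.43 to 1.47), so a change of 2-fold either way was not resolved, and without both replicate 1 arrays it was -0.49. The second probe set (1421951_at) read 7.34, 6.44 and 8.08 in the swap arrays and 6.69, 8.15 and 7.93 in the control arrays, a difference of -0.30 (SE 0.58). The same 2 arrays were lowest there too. Across the 6 arrays the 2 probe sets had a Pearson r of 0.965, as a description of arrays that they share.

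Both Lhx1 probe sets spread more than most. The SD between arrays of the same genotype was 0.81 for each, larger than in 96.5% and 96.4% of the 22519 probe sets that reach the median level, whose median SD was 0.30. Lbx1, a homeodomain factor of classes dI4 to dI6 chosen after its values were seen, had its 2 lowest values in the same arrays. It read 11.79, 11.33 and 12.07 in the swap arrays and 10.86, 11.82 and 11.76 in the control arrays, a difference of 0.25 (SE 0.37). No other measured gene of the dI4 to dI6 list had its 2 lowest values in that pair of arrays. The highest reading of Lbx1 and of the brighter Lhx1 probe set was in swap array 3 in both cases. The summed intensity of the 8 measured genes of the dI4 to dI6 list ranged from 3299 to 5325 in the swap arrays and from 2608 to 4426 in the control arrays. Most of that sum is Lbx1 itself, so its low arrays are not a second reading. What the arrays share beyond these values was not tested.

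**Figure D3:**
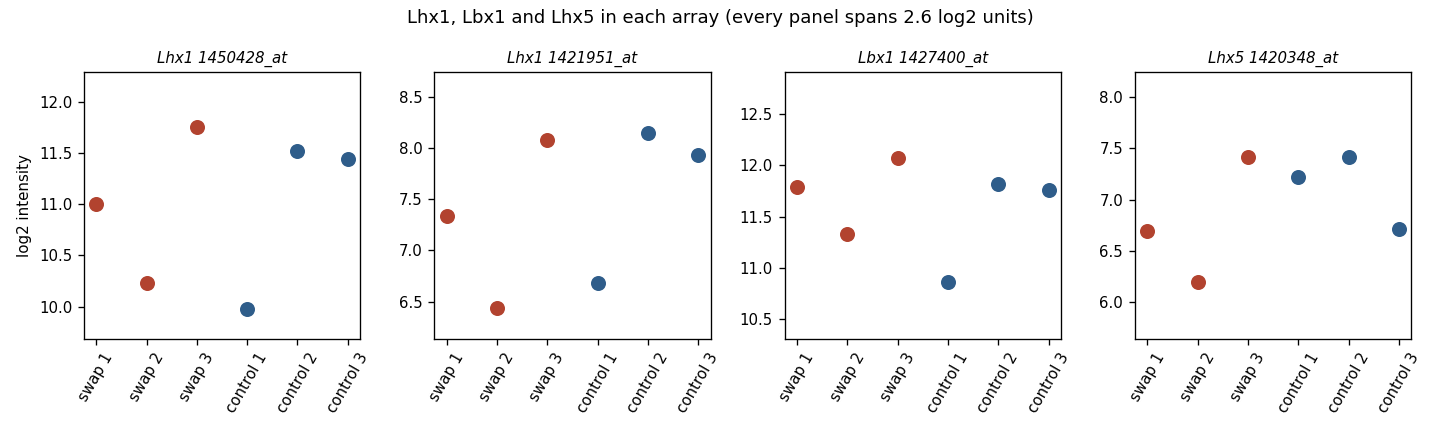
Log2 intensity (vertical axis) of both Lhx1 probe sets, of Lbx1 and of Lhx5 in each of the 6 arrays. Swap array 2 and control array 1 are the 2 lowest arrays in the first 3 panels, and in the Lhx5 panel control array 1 is at 7.22, above 3 other arrays. Of the measured dI4 to dI6 genes, only Lbx1 had this pair of arrays lowest.

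Lhx5, the closest relative of Lhx1 and known from the same interneuron classes, did not follow it in every array. Its single probe set (1420348_at) read 6.69, 6.19 and 7.42 in the swap arrays and 7.22, 7.42 and 6.71 in the control arrays. Its mean of 6.94 was close to the median level, at percentile 51.8 of all probe sets. The brighter Lhx1 probe set was at percentile 92.0. The groups overlapped, and swap array 2 was the lowest. The difference was -0.35 (SE 0.40, 95% interval -1.33 to 0.63), with an adjusted p of 1.00 in limma, and with 1 array left out it ranged from -0.67 to -0.06. Without both replicate 1 arrays it was -0.26.

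Other genes of the classes that use Lhx1 and Lhx5 also had 0 members past the test. In the dI4 to dI6 list 3 of 8 measured genes were higher and 5 lower, with a median of -0.26, and its smallest p belonged to Gsx2 (-1.15, SE 0.31) and Pax8 (-0.61, SE 0.43), both below the median level. In the ventral list, V0 to V2, 3 of 8 were higher and 5 lower, with a median of -0.24, and its smallest p belonged to Sox14 (1.31, SE 0.46, below the median level) and Gata2 (-0.79, SE 0.46). The V0 factor Evx1 read 9.77, 9.13 and 9.18 in the swap arrays and 8.95, 9.19 and 9.20 in the control arrays, a difference of 0.24 (SE 0.27), and was chosen after its values were seen. The summed intensity of the 8 measured ventral genes was 3457 to 3686 in the swap arrays and 4173 to 8011 in the control arrays. Most of that sum is Gata2, a factor of V2 interneurons, which read 10.83, 11.10 and 10.88 in the swap arrays and 12.70, 11.21 and 11.26 in the control arrays, so the sums did not overlap and control array 1 was far above the rest.

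The other LIM homeodomain genes, Isl1, Isl2, Lhx3, Lhx4, Lhx6, Lhx8, Lmx1a and Lmx1b, divided evenly. Of the 8 genes 4 had a higher and 4 a lower mean in the swap arrays, with a median of 0.02 and 0 past the test. Lhx6 had the smallest p of the family, with a difference of -0.53 (SE 0.31), followed by Lmx1a at 0.83 (SE 0.48), which lay below the median level. The median over Lhx1, Lhx2, Lhx5 and Lhx9 was 0.43, which lies between the differences of Lhx1 and Lhx9.

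At the brightest probe set of each, the cofactors Ldb1 and Ldb2 had differences of -0.11 and 0.33, and a 2-fold decrease of Ldb1 was not resolved. Ldb1, the cofactor that most LIM complexes share, read 9.38, 8.63 and 8.35 in the swap arrays and 9.35, 8.55 and 8.80 in the control arrays (1452024_a_at). Both replicate 1 arrays were the highest of their group, and the groups overlapped. The difference was -0.11 (SE 0.38, 95% interval -1.05 to 0.82), with an adjusted p of 1.00 in limma, and without both replicate 1 arrays the differences were -0.18 for Ldb1 and 0.39 for Ldb2.

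Ldb2, a second cofactor of the same family, had 3 probe sets that did not move together. The brightest (1439557_s_at) read 8.40, 8.44 and 8.43 in the swap arrays and 8.19, 8.05 and 8.04 in the control arrays. All swap arrays were above all control arrays, and the replicates were unusually close, with an SD within genotype of 0.06 that only 0.777% of those 22519 probe sets undercut. The difference was 0.33 (SE 0.20, 95% interval -0.16 to 0.82), or 1.26-fold, with an exact permutation p of 0.1 and limma's adjusted p = 1.00. limma's SE is larger than these replicates alone would give, since it draws each variance towards that of all probe sets.

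The other Ldb2 probe sets lay below the median level. Probe set 1456786_at read 6.69, 6.69 and 7.00 in the swap arrays and 4.30, 6.15 and 6.35 in the control arrays, a difference of 1.19 (SE 0.58). All swap arrays were above all control arrays there too (exact permutation p = 0.1), and control array 1 was far below the other 5 arrays. Probe set 1421101_a_at read 6.82, 6.32 and 6.75 in the swap arrays and 6.99, 6.40 and 6.90 in the control arrays, a difference of -0.13 (SE 0.28) with overlapping groups.

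Single-stranded-DNA-binding proteins of the Ssbp family stabilise Ldb complexes, and Rlim is a ubiquitin ligase that acts on Ldb proteins. In the list that joins them with partners of Lmo2, 4 of 10 genes had a higher and 6 a lower mean in the swap arrays, with a median of -0.07 and 0 past the test. Ssbp3 read between 13.10 and 13.38 in the swap arrays and between 13.12 and 13.26 in the control arrays, a difference of 0.03 (SE 0.21), and Rlim had one of -0.03 (SE 0.22). Ssbp3 and Rlim were chosen after their values were seen. Gata2 and Gata3, zinc-finger partners of LIM-only proteins, were its members of smallest p, at -0.79 (SE 0.46) and -0.42 (SE 0.25), with all swap arrays below all control arrays in both.

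Of the LIM-only genes, Lmo2 had the largest difference. Lmo2, a bridge between Ldb1, Tal1 and GATA factors that is best known from blood and endothelium, read 7.74, 8.01 and 8.35 in the swap arrays and 7.48, 7.53 and 7.82 in the control arrays (1454086_a_at). The groups overlapped in 1 pair of arrays, control array 3 above swap array 1. The difference was 0.42 (SE 0.26, 95% interval -0.22 to 1.06, exact permutation p = 0.2, limma's adjusted p = 1.00). Over the 6 arrays Lmo2 and Lhx9 put the arrays in the same order, with a Pearson r of 0.931, the highest of the 45 pairs among the 10 genes. This is a description over arrays that include both genotypes and carries no test.

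Markers of the cells best known for Lmo2 were read beside it. Of 14 endothelial genes 9 had a higher and 5 a lower mean in the swap arrays, with a median of 0.15 and 3 at or above the median level. Their summed intensity ranged from 1391 to 1591 in the swap arrays and from 1280 to 1577 in the control arrays. The smallest p belonged to Cldn5 (0.91, SE 0.44) and Tek (0.59, SE 0.30), both below the median level. The highest means belonged to Egfl7 (-0.17, SE 0.23) and Flt1 (0.13, SE 0.26). Of 9 measured erythroid genes 1 was higher and 8 lower, with a median of -0.27 and sums of 15850 to 32240 in the swap arrays and 21180 to 34220 in the control arrays. Hbb-y, an embryonic globin, differed by -0.15 (SE 0.30) and Hbb-bh1 by -0.27 (SE 0.52). The smallest p belonged to Alas2 (-1.84, SE 1.07, below the median level) and Hba-x (-0.62, SE 0.74). The part of these cells in the Lmo2 value was not tested.

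Lmo1, Lmo3 and Lmo4 are LIM-only genes known from the nervous system, and all 3 had intervals within 2-fold. Lmo1 read 9.05, 8.41 and 8.59 in the swap arrays and 8.97, 8.65 and 8.35 in the control arrays, a difference of 0.03 (SE 0.29, 95% interval -0.69 to 0.75). Lmo3 read 9.55, 9.85 and 9.67 in the swap arrays and 9.83, 9.99 and 9.69 in the control arrays, a difference of -0.15 (SE 0.22, interval -0.70 to 0.39). Lmo3 had the second smallest spread among the 10 representative probe sets, with an SD within genotype of 0.15. Lmo4, which acts with Gata2 and Tal1 in V2 interneurons of the mouse spinal cord, read 8.16, 8.67 and 7.87 in the swap arrays and 8.34, 7.94 and 8.28 in the control arrays. Its groups were mixed, with both the highest and the lowest reading in a swap array, and the difference was 0.04 (SE 0.29, interval -0.68 to 0.77). Across the 6 arrays Lmo4 ran opposite to Lhx5 (r = -0.842) and Lhx1 (r = -0.799), the 2 lowest of the 45 pairs, again as a description. Without both replicate 1 arrays the differences were 0.0058 for Lmo1, 0.50 for Lmo2, -0.082 for Lmo3 and 0.15 for Lmo4, none of them past the test.

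**Figure D4:**
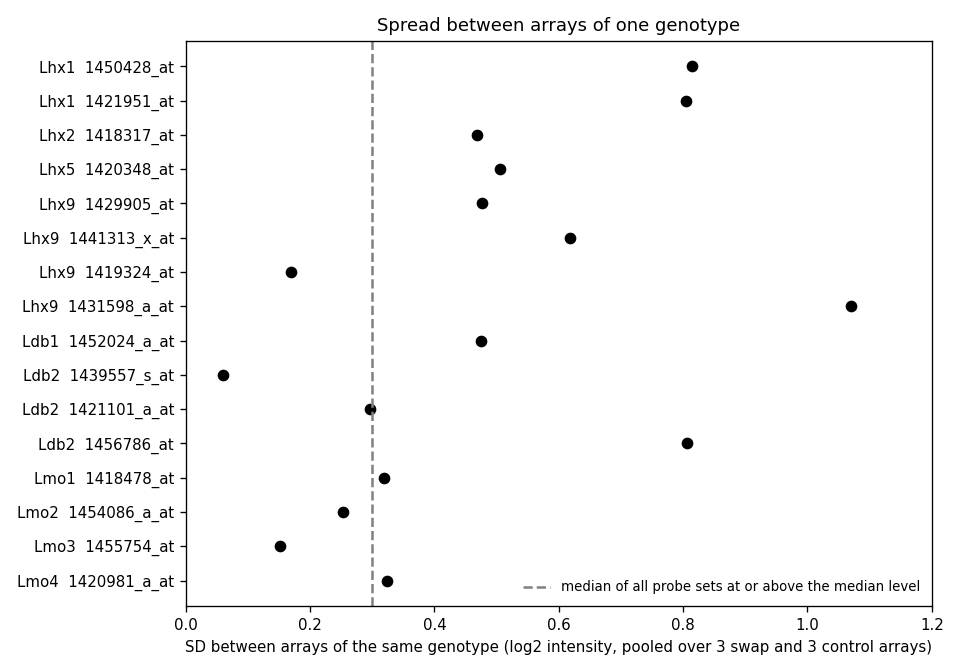
SD between arrays of the same genotype (log2 intensity, horizontal axis, pooled over 3 swap and 3 control arrays) for all 16 probe sets, with the dashed line at the median of 0.30 for all probe sets that reach the median level. Both Lhx1 probe sets lie at 0.81, and the brightest Ldb2 probe set at 0.06.

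Macrophages, branchial mesenchyme and cranial sensory ganglia could also be in the sort, and their markers were summed in the same way. The 11 macrophage genes, 8 higher and 3 lower with a median of 0.44, summed to between 2942 and 5544 in the swap arrays and between 800 and 19270 in the control arrays. The 19270 was in control array 2, while control arrays 1 and 3 summed to 800 and 2045. The 12 mesenchymal genes, 3 higher and 9 lower with a median of -0.21, summed to between 3764 and 6993 in the swap arrays and between 3242 and 9971 in the control arrays. The 7 measured genes of sensory ganglia, 1 higher and 6 lower with a median of -0.09, summed to between 6124 and 7117 in the swap arrays and between 6902 and 7115 in the control arrays. In all 3 lists 0 genes passed limma's test and the sums of the genotypes overlapped, for macrophages only through control array 2. The macrophage genes of smallest p were Aif1 (-2.50, SE 1.17) and Ptprc (1.22, SE 1.22), both below the median level, and those of highest mean C1qb (0.61, SE 1.36) and Mrc1 (0.49, SE 0.88). Among the mesenchymal genes these were Pdgfrb (-0.75, SE 0.34) and Lum (0.74, SE 0.49, below the median level), and Prrx1 (-0.28, SE 0.84) and Col1a1 (-0.10, SE 0.66). Among those of sensory ganglia they were Tlx3, given above, and Eya1 (0.32, SE 0.26), and Pou4f1 (-0.21, SE 0.35) and Neurod1 (-0.09, SE 0.22).

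For each of the 10 genes the gene with the most similar pattern over the 6 arrays was sought among 10679 named genes at or above the median level. Lhx1 was closest to Gstm7 (r = 0.996), Lhx2 to Rpgrip1 (r = 0.992), Lhx5 to Fhit (r = 0.971) and Lhx9 to Trim11 (r = 0.996). Ldb1 was closest to Utp18 (r = 0.992) and Ldb2 to Tmem38b (r = 0.988). Lmo1 was closest to Sec13 (r = 0.998), Lmo2 to Zg16 (r = 0.987), Lmo3 to Cercam (r = 0.992) and Lmo4 to Pcm1 (r = 0.992). With 6 arrays such values are common, since between 45 and 250 genes had an r above 0.9 with each of the 10.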

How the data were processed

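Amplified total RNA of the sorted cells was read on Affymetrix Mouse Genome arrays, as the series design states. The deposited values are linear intensities, 1 for each probe set on each array, scaled by the authors to a 2% trimmed mean of 500 on every array, as the values show. The tool named is affy, per the submitters' processing notes. How background was corrected and probes were summarised is not given in the sources used here. There are no detection calls.

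Log2 was taken without offset, since every value was above 0, and 64 array control probe sets were left out. Swap minus control was fitted over 45037 probe sets with limma 3.58.1 (lmFit and eBayes, R 4.3.3), with Benjamini-Hochberg adjustment, a threshold of 0.05 and 95% intervals. Genes were named through the platform's annotation (34945 probe sets with 1 symbol, 932 with several, 9160 with none), and all 16 member probe sets matched RefSeq. The replicates are independent and biological, per the series design, and no batch is recorded. The fit was tested on simulated data.

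All members are named. Of each related list the 2 genes with the smallest unadjusted p are named, and for other cell types also the 2 with the highest mean. Others are named as chosen after their values were seen. For each member the gene with the highest Pearson r to it is named. The members and lists were chosen with earlier results of these data known. Gene lists were described by counts and medians, with no set test. Alternatives tried were a block for the replicate number, a level filter, an offset of 64, quantile normalization, median centring, a trended robust prior, weighting of arrays, the mean or the most variable probe set of a gene, and left-out arrays.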

Additional observations from a re-analysis of the deposited data

How the results depend on the processing

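limma called 0 probe sets and 0 of the 16 member probe sets under all 14 alternatives run for those counts, with a smallest adjusted p of 0.241 over all probe sets and 0.470 over the members. An unadjusted p under 0.05 was reached by 838 to 2375 probe sets and 1 to 5 members, the 838 with the level filter, over fewer probe sets. Of 160 alternative values of the 10 genes 147 kept their direction and 0 passed the threshold. Many of these could not change sign. The replicate block, the level filter and the trended prior leave the estimate as it is. For genes with 1 probe set, so do the mean and the most variable probe set. Lhx2 stayed between 0.54 and 1.26, and with 1 array left out between 0.69 and 1.26. Ldb2 ranged from 0.28 to 1.19, the 1.19 with its most variable probe set, which lies below the median level. The remaining 13 of the 160 changed sign, none of them a called difference. Lhx1 was at -0.19 with array weights, -0.49 without both replicate 1 arrays, -0.14 with the mean of its probe sets and -0.30 with its most variable probe set. Lhx9 was at -0.0034 with its most variable probe set, which is the one below the median level. With 1 array left out the ranges were -0.48 to 0.40 for Lhx1, -0.41 to 0.11 for Ldb1, -0.15 to 0.19 for Lmo1 and -0.17 to 0.23 for Lmo4, with fewer samples, and 0.58 to 1.15 for Lhx9. With the replicate number as a block limma called 0, and 2323 probe sets had an unadjusted p under 0.05 against 2060 without it. Same-numbered arrays deviated from their group means with correlations of 0.234, 0.0313 and 0.224, swap array 2 did not correlate best with its own number, and the number was not used as a pairing. Below the median level the median SE of a difference was 0.731, against 0.282 above it.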

Other observations

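Among the other LIM homeodomain genes, Lhx8, known from the mesenchyme of the first branchial arch, read 8.67, 9.64 and 9.13 in the swap arrays and 7.51, 10.13 and 9.87 in the control arrays. Its lowest value in each genotype was in the replicate 1 array, and the difference was -0.02 (SE 0.76). Prrx1, a mesenchymal factor, read 8.48, 10.23 and 9.83 in the swap arrays and 8.16, 10.82 and 10.40 in the control arrays, also with both replicate 1 arrays lowest. Lhx4, a LIM homeodomain factor of motor neurons and V2 interneurons, read 12.31, 12.42 and 12.65 in the swap arrays and 11.84, 12.69 and 12.55 in the control arrays, a difference of 0.10 (SE 0.30). Lhx8, Prrx1 and Lhx4 were picked with their values in view.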
